A study of Mus musculus with 3 samples.

Results

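A set of 10 genes of the D2 striatal projection neuron was followed in MEIS2 CUT&Tag data from the embryonic mouse forebrain. They are Six3, Zfp503, Sp9, Drd2, Adora2a, Penk, Gpr6, Gpr52, Gucy1a1 and Ptprm, 10 of 21887 protein-coding genes in the RefSeq table used here, and they were taken by name. A locus was the gene body plus 50 kb on each side. MEIS2 belongs to the TALE homeodomain transcription factors. In CUT&Tag an antibody brings the Tn5 transposase to a bound protein, and the transposase tags the DNA around it. Cells came from the lateral ganglionic eminence (LGE) of wild-type CD1 embryos at embryonic day 14.5. One group had the MEIS2 antibody (2 libraries, replicates 1 and 2), and the other had no primary antibody (1 library), with 100000 cells per library. The labels do not say whether the libraries came from separate embryos, so the spread between replicates may be technical. The labels name no sorting of cell types, and the files hold CUT&Tag peaks without RNA, so neither the share of D2 neurons in it nor the activity of these genes could be checked here. A strong signal in few cells and a weak signal in many cannot be told apart.

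Striatal projection neurons arise from the LGE and fall into a direct-pathway class, which makes the dopamine receptor Drd1, and an indirect-pathway class, which makes Drd2. The indirect class is also known for the adenosine receptor Adora2a and for enkephalin, the peptide cut from the product of Penk. In the mouse, the zinc finger factor Sp9 and the homeodomain factor Six3 are needed for the making of Drd2 neurons. TALE factors such as MEIS2 recognise a short core, TGACAG, often together with PBX or HOX partners.

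MEIS2 peaks were found at 9 of the 10 loci, and Gpr52 was the exception. Each library has a peak list that the authors called separately, and a peak of replicate 1 was counted as reproducible where it shared at least 1 bp with a replicate 2 peak and none with a no-antibody peak. Of all protein-coding genes, 92.8% had such a peak in their locus by the same rule, so 9 of 10 is near the background. The 10 loci held 60 peaks in MEIS2 replicate 1 and 74 in replicate 2, against 6 in the no-antibody library. The whole lists differed in the same direction, with 78060, 82093 and 9869 peaks. No-antibody peaks numbered 0.322 per 100 kb over the 10 loci and 0.267 over the loci of all protein-coding genes. The 6 fell at 5 members, and 26.6% of all protein-coding genes had a no-antibody peak in their locus. In replicate 1, 40 of the 60 peaks (66.7%, exact 95% interval 53.3 to 78.3, counting error only) had a replicate 2 partner, against 67% of all replicate 1 peaks. A no-antibody peak overlapped 2 of the 60 (3.33%, exact interval 0.406 to 11.5), against 6.01% of all. That left 38 reproducible peaks. They numbered 8 at Ptprm, 7 each at Adora2a and Penk, 4 at Six3, 3 each at Sp9 and Gucy1a1, and 2 each at Zfp503, Drd2 and Gpr6. Counting every peak of 1 library clear of no-antibody peaks would give 58 from replicate 1 alone and 70 from replicate 2 alone. No test between MEIS2 and control was run, since the no-antibody group has 1 library and the spread would rest on the MEIS2 libraries alone.

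**Figure D1:**
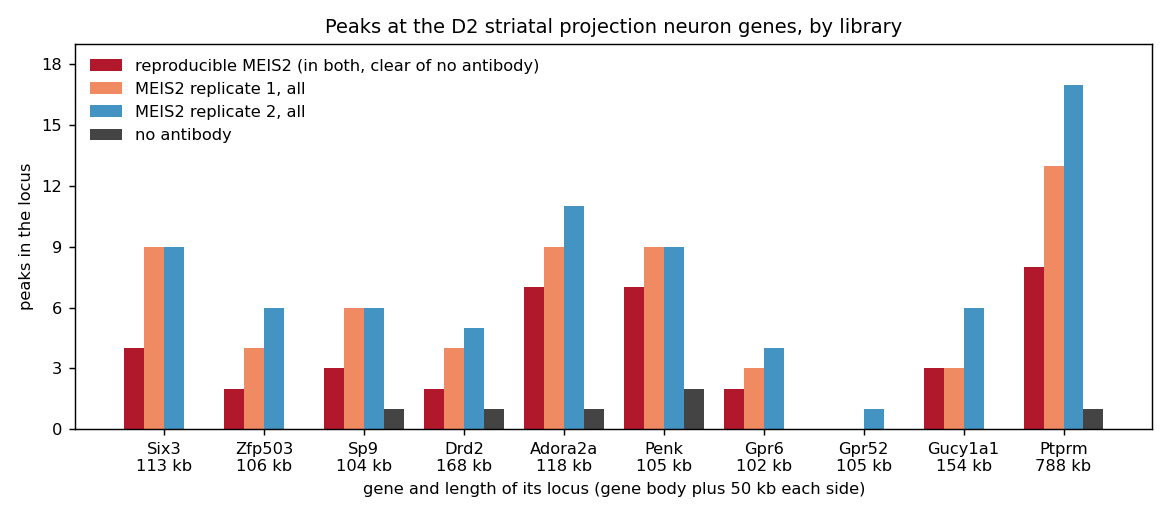
Number of peaks (vertical axis) in the locus of each gene (horizontal axis, with the length of the locus), for the reproducible MEIS2 set, for each MEIS2 library and for the library without antibody. Ptprm has the most peaks in both MEIS2 libraries (13 and 17) on the longest locus, Gpr52 has 1 in replicate 2 alone, and no locus has more than 2 no-antibody peaks.

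Scaled to length, the loci differed by several fold. The 10 loci together had 2.04 reproducible peaks per 100 kb, against 2.90 over the loci of all protein-coding genes. The median gene had 1.95 among the 10 and 2.71 among all. Penk (6.65 per 100 kb) and Adora2a (5.94) were the densest, and 89.4% and 86.4% of protein-coding genes had a lower density. With −log10 q of at least 5 in every list, Penk had 6 peaks in place of 7, and Adora2a had 2 in place of 7. With flanks of 25 kb they had 5 and 4. Six3 had 1 in place of 4 at that −log10 q. Six3 (3.55) and Sp9 (2.89) lay above the median of all genes. Gpr6 (1.95), Gucy1a1 (1.95), Zfp503 (1.89), Drd2 (1.19), Ptprm (1.02) and Gpr52 (0) lay below it. Ptprm is 688 kb long, so its 8 peaks, more than 85.7% of genes have, were thinly spread. The densities are counts in 1 set of peaks and have no replicate error of their own.

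Reproducible peaks lay at an end of the gene itself at 5 of the 10 members, namely Drd2, Adora2a, Penk, Gucy1a1 and Ptprm. Here an end means a summit within 1 kb of either end of the annotated span, start or far end alike. Over all protein-coding genes 52.4% had one, and 0.27% had a no-antibody peak there. No member had a no-antibody peak at an end of its own. Those 5 members held 6 of the 38 peaks. A further 4 peaks lay at an end of a neighbouring protein-coding gene and 2 at an end of a gene of another biotype. These 12 make 31.6% of the peaks. Of all reproducible peaks, inside or outside the locus of a protein-coding gene, 28.6% lay at a gene end, so these sets are not alike. The other 26 were distal to every annotated gene end, 12 of them inside a member and 14 outside. They fell at 8 members, and 80.9% of all protein-coding genes had a distal peak in their locus. That is 1.40 distal peaks of 2.04 reproducible peaks per 100 kb, against 1.57 of 2.90 over all protein-coding loci. In this comparison of like sets the distal part was larger at the members. The median gene had 1.44 distal peaks per 100 kb among the 10 and 1.33 among all. Ptprm, the longest locus at 788 kb, had 0.889, so the summed densities do not show the members to be poorer in distal peaks. By a 50% reciprocal overlap between the MEIS2 libraries, 2 of the 10 members (Drd2 and Penk) had a peak at an end, against 45.4% of all genes. In that setting a no-antibody peak also had to overlap by 50% reciprocally before it excluded a peak. The distance chosen for an end matters too: with 2500 bp in place of 1 kb, 9 of the 10 members had a peak at an end, against 60.7% of all genes, because the peaks at Gpr6, Sp9, Zfp503 and Six3 lay 1026, 1513, 1914 and 2481 bp from one.

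The members with a listed promoter can be read at the level of sequence. The RefSeq promoter table, built on GRCm38.p6, whose chromosomes mm10 shares, gives 250 bases before and 50 after the start of 7 members, with a pair of starts for Gucy1a1. Of these 8 promoters, 4 overlapped a reproducible peak (Drd2, Ptprm and both of Gucy1a1), against 33.5% of all 32851 listed promoters. None overlapped a no-antibody peak, which 0.0731% of all did. The 3 sequences that follow are promoters under a MEIS2 peak, with the GC box GGGCGG in capitals, read on both strands so that it also appears as CCGCCC. They are Drd2 at chr9:49340153-49340452 (plus strand), Ptprm at chr17:67354410-67354709 (minus strand) and the outer start of Gucy1a1 at chr3:82145601-82145900 (minus strand).
Drd2: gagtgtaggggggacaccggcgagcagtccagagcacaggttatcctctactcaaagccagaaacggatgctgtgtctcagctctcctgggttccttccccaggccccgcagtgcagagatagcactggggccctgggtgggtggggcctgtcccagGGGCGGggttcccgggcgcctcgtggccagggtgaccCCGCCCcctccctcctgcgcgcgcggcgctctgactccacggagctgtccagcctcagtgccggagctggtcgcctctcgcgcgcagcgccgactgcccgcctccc
Ptprm: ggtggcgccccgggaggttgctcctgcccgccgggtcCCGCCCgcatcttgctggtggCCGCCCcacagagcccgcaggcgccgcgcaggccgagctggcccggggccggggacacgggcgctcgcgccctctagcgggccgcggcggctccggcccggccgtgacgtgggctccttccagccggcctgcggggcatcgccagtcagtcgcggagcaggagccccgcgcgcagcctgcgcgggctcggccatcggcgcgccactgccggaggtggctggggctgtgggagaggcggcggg
Gucy1a1: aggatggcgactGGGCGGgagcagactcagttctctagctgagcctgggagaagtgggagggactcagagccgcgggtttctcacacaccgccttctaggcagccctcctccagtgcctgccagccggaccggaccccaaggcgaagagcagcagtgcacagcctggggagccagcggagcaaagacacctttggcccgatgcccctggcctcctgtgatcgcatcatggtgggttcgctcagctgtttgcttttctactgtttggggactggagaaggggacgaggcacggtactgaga

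The MEIS core TGACAG was absent from those 3 sequences and present in a pair of member promoters that no MEIS2 peak touched. These are Six3 at chr17:85620584-85620883 (plus strand), where the core starts 139 bases before the gene start, and Gpr6 at chr10:41072241-41072540 (minus strand), where it lies on the other strand as CTGTCA, 59 bases before the start. The core is in capitals.
Six3: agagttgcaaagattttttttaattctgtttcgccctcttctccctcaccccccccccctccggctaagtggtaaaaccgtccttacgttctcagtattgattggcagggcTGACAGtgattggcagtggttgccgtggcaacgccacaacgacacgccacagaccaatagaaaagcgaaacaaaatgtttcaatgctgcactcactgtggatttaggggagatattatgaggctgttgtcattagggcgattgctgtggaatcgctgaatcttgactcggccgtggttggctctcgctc
Gpr6: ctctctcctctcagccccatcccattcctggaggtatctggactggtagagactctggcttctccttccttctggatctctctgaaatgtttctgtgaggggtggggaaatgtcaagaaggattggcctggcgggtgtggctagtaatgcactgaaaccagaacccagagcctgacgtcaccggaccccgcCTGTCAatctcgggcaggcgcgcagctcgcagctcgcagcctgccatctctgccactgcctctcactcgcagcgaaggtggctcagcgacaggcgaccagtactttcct

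The search covered the MEIS core TGACAG, the PBX-type sites TGATTGAC and TGATTGAT, the DLX-type homeodomain site TAATTA and the GC box GGGCGG, on both strands. The site TGATTGAC can share its last bases with the MEIS core. No member promoter held either PBX-type site or the DLX-type site. Over all listed promoters 0.770% held TGATTGAC, 0.746% TGATTGAT and 5.29% TAATTA, so 8 promoters are too few to show a difference. Over all listed promoters, 14.7% of those under a reproducible peak and 21.5% of the rest held the MEIS core. The share of all was 19.2%, beside 2 of the 8 member promoters. The GC box was in 75.1% of promoters under a peak, 15.8% of the rest and 35.7% of all. Among the members it was in 4 of 8 (Drd2, Ptprm, Sp9 and the outer start of Gucy1a1). Base composition moved with this: the median GC content was 65.0% under a peak and 48.3% elsewhere. The member values were 80.7% at Ptprm, 70.3% at Drd2, 63.7% at Sp9, 62.3% at both starts of Gucy1a1, 58.7% at Gpr6, 58.3% at Zfp503 and 50.0% at Six3. These letters describe the promoter window only. Sequence under the distal peaks was not analysed here.

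Among the transcription factor genes, Six3, a homeodomain factor of the sine oculis type, had 4 reproducible peaks, with fold enrichments between 4.46 and 6.08. Fold enrichment, given for replicate 1 and then replicate 2, is the caller's ratio of summit pileup to the pileup expected locally, with 1 added to each. The peak of highest value lay at chr17:85608322-85609221 (6.08 and 5.04), 11798 bp upstream of the listed Six3 start. Another, at chr17:85618014-85618497 (4.54 and 4.85), had its summit inside the annotated span of Six3, 2712 bp upstream of its listed start. It also lay 274 bp from the start of Six3os1, an lncRNA gene read in the opposite direction, and it overlapped the listed promoter of that gene. The peak at chr17:85623565-85623839 (4.91 and 4.52) lay 2876 bp downstream of the start, and the one at chr17:85645670-85645869 (5.29 and 4.46) 24968 bp downstream. Beside these, replicate 1 had 5 peaks and replicate 2 had 4 that did not recur, 1 of them in replicate 1 within 1 kb of the far end of Six3. Another in replicate 1 alone, chr17:85621651-85621893 (4.12), had its summit within 1 kb downstream of the listed start, nearer to it than any reproducible peak. The no-antibody library had none at this locus.

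Zfp503, also called Nolz1, a zinc finger factor of the developing striatum, had 1 peak inside the gene and 1 at its neighbour. The inner peak, at chr14:21987331-21987911 (3.52 and 4.49), lay 1914 bp downstream of the start. Its replicate 1 value was the lowest of the 38, and only 1.59% of all reproducible peaks were below it. The other, at chr14:22019567-22019852 (8.80 and 7.01), lay 30.1 kb away, with its summit 10 bp from the start of Lrmda, a separate protein-coding gene. Sp9, a zinc finger factor of the SP family, had a peak inside the gene at chr2:73273149-73274183 (4.10 and 4.34), 1513 bp downstream of its start. This peak was wide in replicate 1, and 2 replicate 2 peaks fell under it. Another lay 6707 bp upstream at chr2:73265092-73265265 (5.86 and 6.30). The third, at chr2:73312569-73312833 (5.88 and 7.65), sat where Scrn3 and Cir1 start in opposite directions, 36.9 kb from Sp9. At the start of Sp9 itself a peak was called in replicate 1 alone, at chr2:73271762-73272045 with a fold enrichment of 3.28, 39 bp from the start. The no-antibody peak of the locus lay 33.0 kb away, at chr2:73238814-73239096 (7.76), and overlapped a replicate 2 peak (5.74).

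The 4 peaks inside Six3, Zfp503 and Sp9 had low fold enrichment beside ordinary pileup. Their pileups, the numbers of tags stacked at the summit, were 18 to 23 in replicate 1 and 12 to 18 in replicate 2, against medians of 17 and 12 over all reproducible peaks. The locally expected pileup, which the caller takes over up to 10 kb around the peak and which follows from the deposited pileup and fold enrichment, was raised. The caller had no control file, so this level came from the same MEIS2 library, with the tags of any nearby peaks included. It was 4.10 to 7.49 times the genome-wide expectation in replicate 1 and 3.31 to 5.13 times in replicate 2, against medians of 1.69 and 1.51 times over all reproducible peaks. The ranges of the 29 peaks at the other members were 1.00 to 3.90 and 1.00 to 2.88 times, so the 4 stood above every one of these in both replicates. In the whole set such levels were not rare: 86.8% to 97.6% of reproducible peaks had lower ones in replicate 1 and 83.1% to 93.1% in replicate 2. The 5 peaks of the same loci with summits outside the gene had 1.00 to 2.80 and 1.00 to 2.08 times. The fold enrichments of the 4 (3.52 to 4.91 and 4.34 to 4.85) are ratios to a high local level, and they do not rank tag numbers. Repetition was also lower by count at these 3 loci. There 9 of 19 replicate 1 peaks recurred in replicate 2 (47.4%, exact interval 24.4 to 71.1). At the other members 31 of 41 did (75.6%, 59.7 to 87.6). The intervals overlap, and they treat as independent peaks that share libraries and loci, so they are no test between these members.

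**Figure D2:**
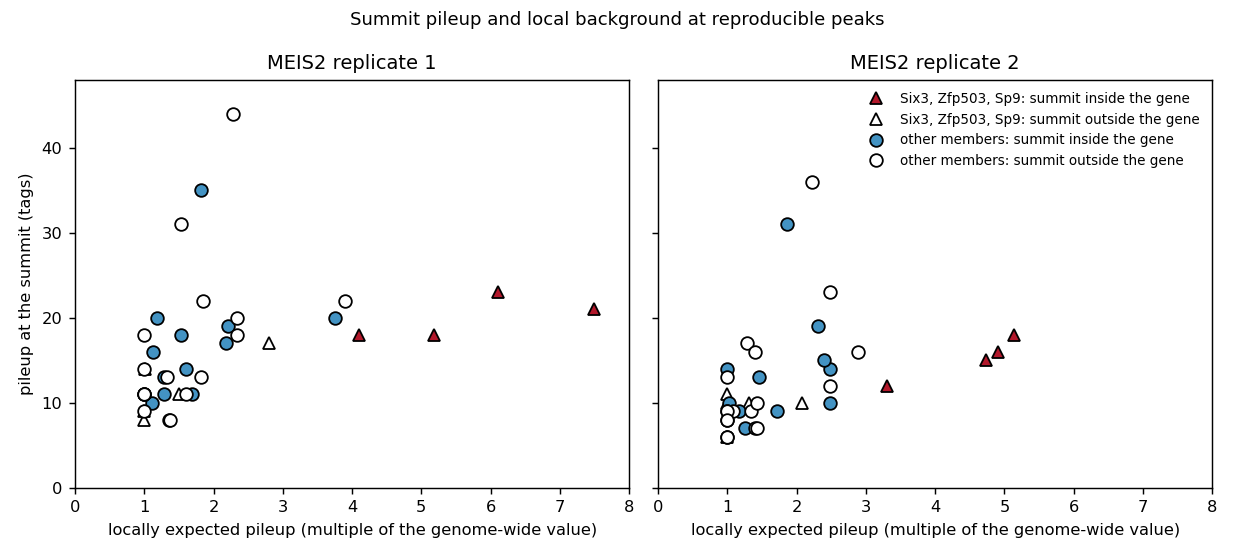
Pileup at the summit in tags (vertical axis) against the locally expected pileup as a multiple of the genome-wide value (horizontal axis), 1 point per reproducible peak, with a panel per MEIS2 replicate. Filled triangles, the peaks inside Six3, Zfp503 and Sp9, lie furthest right in both panels, at 4.10 to 7.49 and 3.31 to 5.13, while their pileups fall within the range of the other members.

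Among the receptor genes, Drd2 had its reproducible peak at the start of the gene. At chr9:49340209-49340955 the fold enrichments were 7.39 and 6.95, the pileups 13 and 10, and the replicate 1 summit was 10 bp upstream of the listed start. The peak covered 244 of the 300 bases of the promoter printed above, and 51.1% (replicate 1) and 57.1% (replicate 2) of reproducible peaks had lower values. A second peak at chr9:49416376-49416695 (7.06 and 4.46) lay 8353 bp from Drd2. The tallest signal of the locus was shared with the control. It lay 14.3 kb from the gene at chr9:49325624-49326362, with fold enrichments of 14.2 and 14.6 and pileups of 82 and 71 in the MEIS2 libraries, against 4.92 and 17 in the no-antibody library. The rule leaves such peaks out of the reproducible set, although the MEIS2 values were higher than the control value in both replicates. Pileup is not scaled to depth, and the caller used 7618406 and 6559629 tags for MEIS2 and 6337375 without antibody.

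Adora2a, the adenosine receptor that raises cAMP in indirect-pathway neurons, had 7 reproducible peaks, in and beyond the gene. Inside it were chr10:75316655-75317780 (5.78 and 4.57), 361 bp from one end, chr10:75325798-75326234 (5.49 and 5.07) in the middle, and chr10:75333167-75334186 (7.08 and 8.65), 1077 bp from the other end. The first and the third were wide in replicate 1, 1126 and 1020 bp, and 97.2% and 95.6% of reproducible peaks were narrower. In replicate 2 the width did not recur as 1 peak: 2 peaks fell under each. The partners used overlapped them by 353 and 349 bp. Outside, the strongest was chr10:75363178-75363462 (11.2 and 10.4), 28.5 kb from Adora2a and 10.3 kb from any gene end. The remaining 3 outside were chr10:75352576-75352819 (5.88 and 4.46), chr10:75378044-75378278 (5.67 and 4.46) and chr10:75380603-75380882 (4.58 and 6.19). The first of these 3 lay 275 bp from an end of Gm5779, a gene of another biotype. The no-antibody library had a peak 46.3 kb from the gene, at chr10:75381044-75381277 (6.15), which a replicate 2 peak overlapped and no replicate 1 peak did.

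Gpr6, a receptor of high basal activity that couples to adenylyl cyclase, had the peak with the highest fold enrichment of the 38. It lay 29.1 kb from Gpr6, at chr10:41040579-41041090, with values of 17.3 and 16.3 and pileups of 44 and 36. In each replicate 97.2% of reproducible peaks were below it, and no annotated gene end lay within 3626 bp. The other peak, inside the gene at chr10:41070772-41071568, differed between replicates, at 9.19 and 4.67, and its summit was 1026 bp downstream of the start, just beyond the 1 kb that counts as an end. Gpr52, an orphan receptor gene that sits within Rabgap1l, had no reproducible peak. It had no peak in replicate 1, 1 in replicate 2 at chr1:160569273-160569450 (8.93) and none in the no-antibody library.

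Penk had 7 reproducible peaks, 2 of them at 1 end of the gene. These were chr4:4138578-4138998 (7.26 and 5.68), with its summit 20 bp from the end, and chr4:4138057-4138228 (4.62 and 7.67), 686 bp inside it. On the far side of the gene, 12.3 and 12.8 kb away, a pair of peaks less than 1 kb apart lay at chr4:4121049-4121372 (7.97 and 9.96) and chr4:4120551-4120864 (7.21 and 5.40). Another lay 36.8 kb off at chr4:4096666-4096899 (7.06 and 6.38). Beyond the end with the peaks were chr4:4149232-4149436 (7.06 and 8.93), 10.5 kb away, and chr4:4166854-4167211 (15.5 and 9.48), 28.2 kb away, the strongest of the locus in replicate 1 but below the one valued 9.96 in replicate 2. The 2 no-antibody peaks of the locus, at chr4:4161652-4161884 (3.86) and chr4:4172001-4172241 (5.24), overlapped no MEIS2 peak of either replicate.

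Gucy1a1 encodes the alpha subunit of the nitric oxide receptor guanylyl cyclase, and its locus holds Gucy1b1, which encodes the beta subunit of the same enzyme. MEIS2 peaks lay at the starts of both. The Gucy1a1 peak of replicate 1, chr3:82144996-82145909 (6.20 and 6.01), covered all 300 bases of both listed promoters. The summit of the replicate 2 partner used lay 378 bp from its own. The Gucy1b1 peaks were chr3:82074297-82075090 (6.16 and 4.42), 80 bp from its start, and chr3:82073747-82074084 (10.0 and 6.08), 786 bp from it. All 3 replicate 1 peaks of this locus recurred by the 1 bp rule, no distal reproducible peak was found, and the no-antibody library had no peak. With 50% reciprocal overlap 1 reproducible peak was left, and it was not at an end of Gucy1a1. The Gucy1b1 start and the inner start of Gucy1a1 lie 70.4 kb apart, both on the minus strand.

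Ptprm, which encodes a receptor-type tyrosine phosphatase with adhesive ectodomains, had 8 reproducible peaks over 788 kb. The widest of the 38 in replicate 1, 1817 bp, covered its start at chr17:67353153-67354969 (6.16 and 6.45), and 99.9% of all reproducible peaks were narrower. In replicate 2, 2 peaks fell under it, and the partner used overlapped it by 722 bp. Downstream of the start came chr17:67343188-67343615 (11.5 and 9.56) at 11.0 kb and chr17:67250206-67250734 (15.8 and 15.6) at 104 kb. The peak at 104 kb was above 95.6% and 96.4% of reproducible peaks in the 2 replicates. Deeper in the gene, 4 peaks formed 2 pairs, chr17:67130880-67131151 (9.49 and 5.74) with chr17:67126551-67126797 (6.33 and 6.38), and chr17:67005611-67006085 (7.11 and 6.78) with chr17:67001204-67001576 (7.85 and 6.23). The last, chr17:66652214-66652481 (8.82 and 5.74), lay 14.5 kb beyond the far end. A site inside the gene at chr17:66842104-66842448 had fold enrichments of 15.7 and 15.9 and pileups of 28 and 25 in the MEIS2 libraries, against 8.18 and 15 without antibody, and was left out by the rule.

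**Figure D3:**
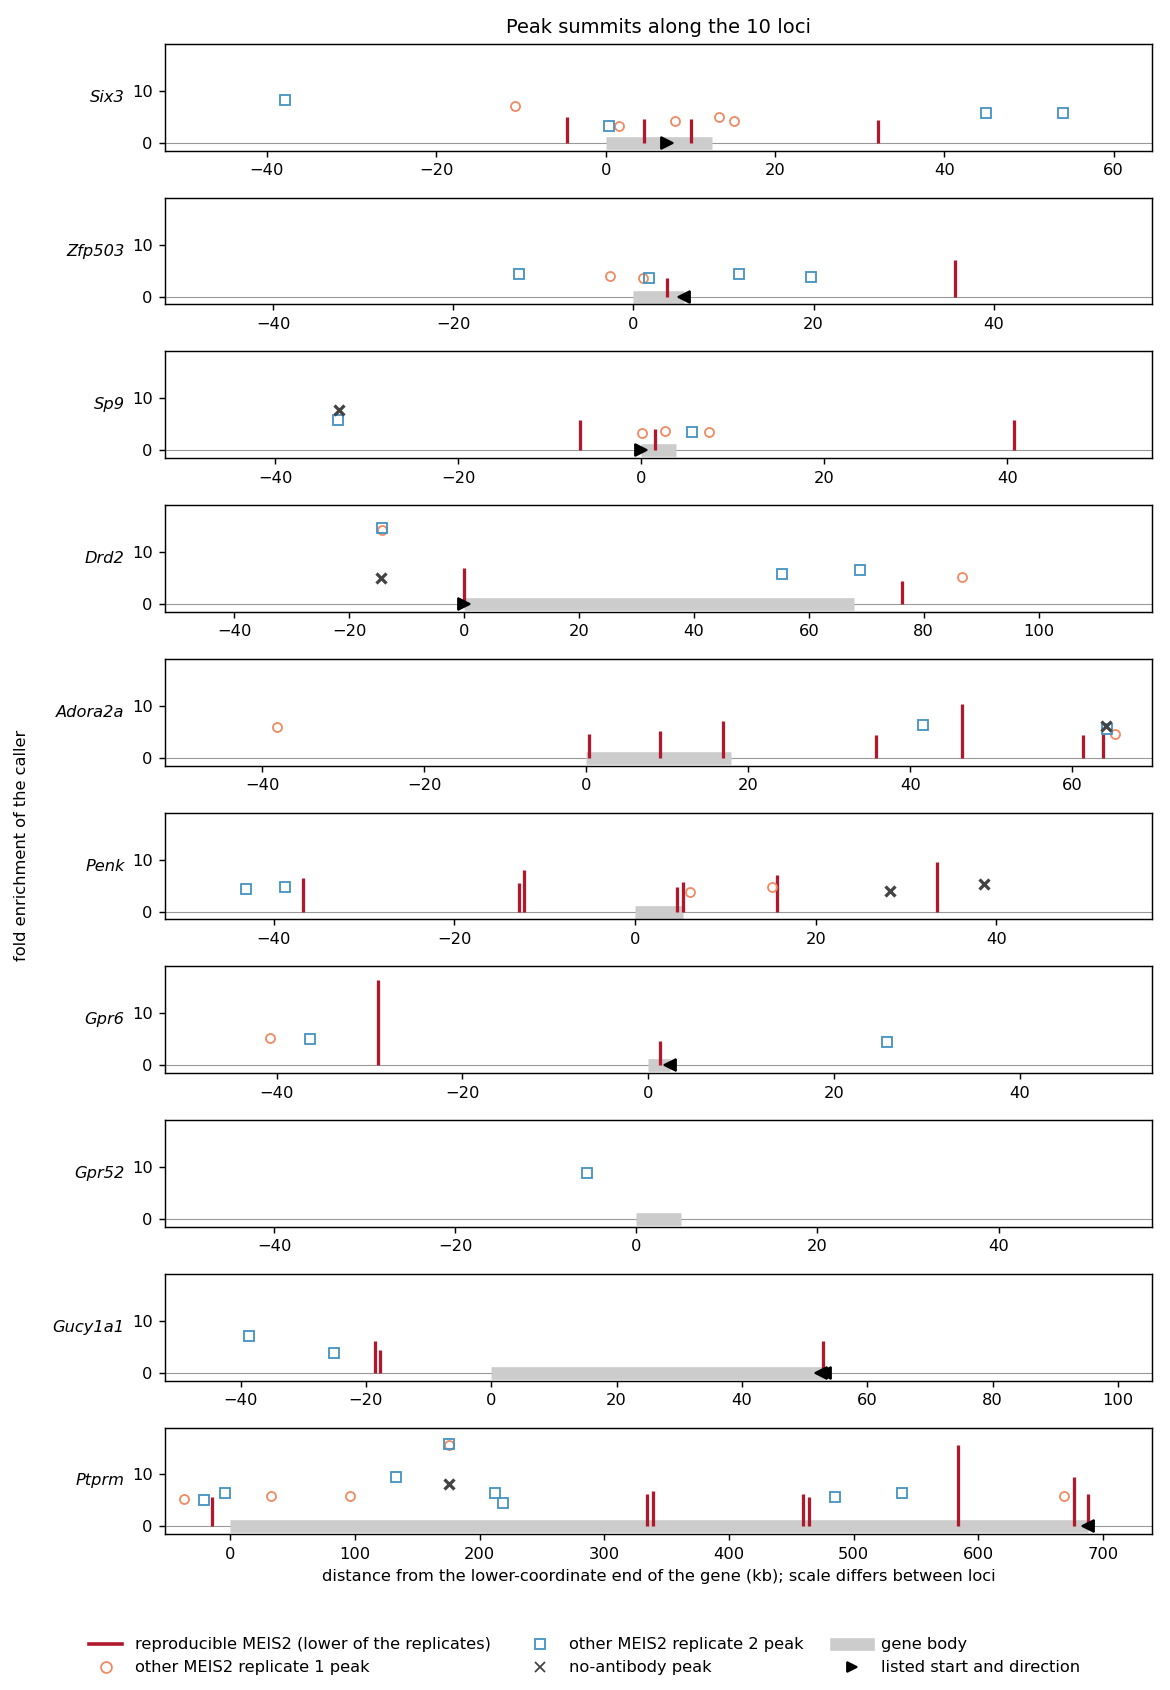
Summits along each locus, as distance in kb from the lower-coordinate end of the gene (horizontal axis), against the caller's fold enrichment (vertical axis). Red lines are reproducible MEIS2 peaks at the lower of their values, open symbols are other peaks of either MEIS2 library, crosses are no-antibody peaks, grey bars are genes and triangles are listed starts. The tallest red lines, above 15, stand outside Gpr6 and inside Ptprm, and at Drd2 and Ptprm the highest MEIS2 symbols stand over a no-antibody cross.

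Between replicates the 38 peaks varied about as much as the whole set by ratio of fold enrichments, and matched less closely by rank and summit position. Fold enrichments were within 1.5 times of each other for 31 of 38, against 84.9% of all 47809 reproducible peaks, and replicate 1 was higher for 26 of 38, against 66.7% of all. The medians were 7.06 and 6.13 at the members, against 7.26 and 6.38 in the whole set, and 13 (replicate 1) and 14 (replicate 2) of the 38 were above those medians. Spearman's correlation of fold enrichment was 0.599 across the 38 peaks and 0.724 across all. Peaks share libraries and are not independent, so this is a description. Summits of a pair lay a median of 52.5 bp apart, against 41 bp in the whole set. The largest distance was 571 bp, in the peak inside Sp9 that was wide in replicate 1. Where several replicate 2 peaks fell under 1 replicate 1 peak, the one of highest fold enrichment was used. The thresholds of the rule were not closely approached from inside. The smallest overlap of a reproducible peak with its replicate 2 partner was 152 bp, at Sp9, and the nearest miss was a replicate 1 peak at Zfp503 with 223 bp between it and replicate 2. The outermost peak counted lay 45.8 kb from Adora2a, and the nearest one not counted 57.4 kb from Sp9.

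**Figure D4:**
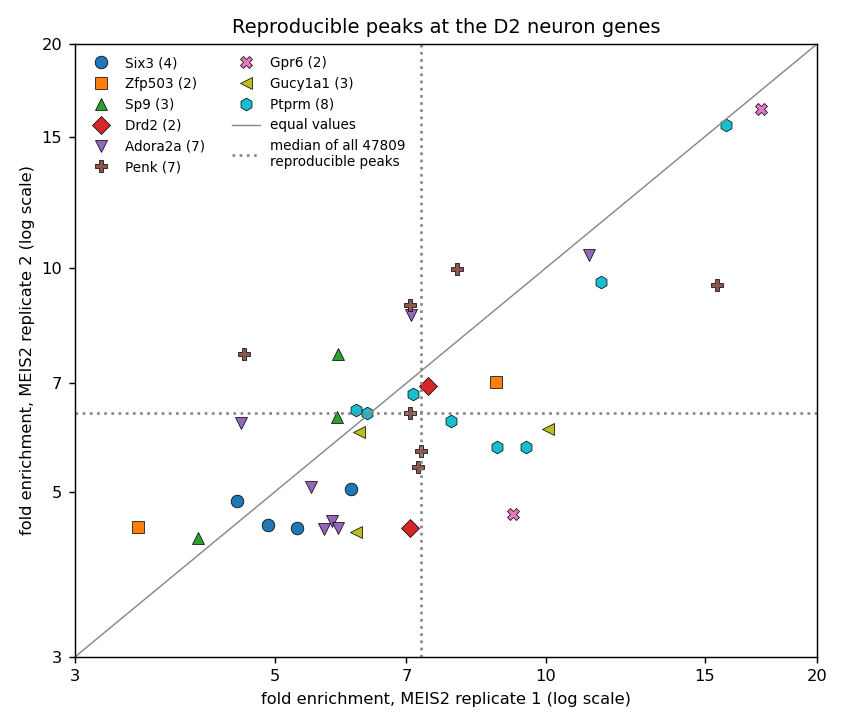
Fold enrichment in MEIS2 replicate 2 (vertical axis, log scale) against replicate 1 (horizontal axis, log scale) for the 38 reproducible peaks, with the number of peaks per gene in brackets, a line of equal values and dotted medians of all reproducible peaks. Most points lie below the line, and the peaks of Gpr6 (17.3 and 16.3) and Ptprm (15.8 and 15.6) stand highest in both.

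Genes of the related classes were counted in the same way, without a test between lists. Of 4 other genes linked to D2 neurons, all had a peak at an own end: Gprin3 (9.77 and 6.38), Ikzf1 (8.15 and 6.29), Sp8 (6.09 and 4.53), an SP factor close to Sp9, and Grik3 (4.90 and 4.32). Sp8 and Grik3 also had the most distal peaks of these 4 per 100 kb, 2.82 and 1.85. Of 10 genes of the D1 class, 7 had one, with Sfxn1 (10.4 and 7.65), Isl1 (7.56 and 6.98), Tac1 (6.47 and 7.01) and Drd1 (10.0 and 6.19) highest. Slc35d3 and Zfp521 had the most distal peaks of that list per 100 kb, 1.84 and 1.56, and Pdyn had no reproducible peak. Of 14 genes shared by both classes, 11 had one, with Gnal (11.9 and 10.3), Arpp21 (11.4 and 8.21), Foxp2 (8.03 and 7.23) and Rasd2 (7.13 and 7.68) highest. Gng7, a G protein subunit gene, and Rasd2 had the most distal peaks per 100 kb of that list, 6.01 and 5.45. Set beside 5 of the 10 members and 52.4% of all genes, these counts are descriptions of short lists. Median densities of all reproducible peaks per 100 kb were 1.95 for the 10 members, 2.61 for the other D2 genes, 1.63 for the D1 genes and 2.29 for the shared genes, against 2.71 for all protein-coding genes.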

How the data were processed

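The files are 3 peak tables from the LGE of CD1 mice, for MEIS2 replicate 1, MEIS2 replicate 2 and the library with no antibody, grouped by the antibody label. Per the file headers, the authors ran MACS 2.2.7.1 on each library alone, giving no control file and not using read pairs, with a q cutoff of 0.05 and at most 1 tag kept per position. The submitters' processing notes list mm10, Bowtie2 2.3.4, Picard and Trimmomatic, and a MACS2 version, 2.1.4, that is not the one in the headers. The file headers put the tags used at 7618406 (MEIS2 replicate 1, of 74259592 read in), 6559629 (MEIS2 replicate 2, of 79760948) and 6337375 (no antibody, of 72763762). Few kept tags mean coarse values, and peaks with pileups near the minimum can be missed.

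The authors' signal column is the pileup in tags at the summit, without scaling for depth. Their deposited fold enrichment is a ratio to the local expectation. The caller's −log10 q-value and −log10 p-value, as deposited, belong to each library. From the deposited columns, the locally expected pileup was computed as (pileup + 1) divided by fold enrichment, less 1, and divided by the tags used times fragment length over genome size. The lowest value so computed equalled that genome-wide expectation in every library.

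Peaks on chromosomes 1 to 19, X and Y were used. Gene spans and promoters came from RefSeq tables of GRCm38.p6, and all 10 members matched by symbol, 7 of them in the promoter table. For peaks at an own end, both ends of the annotated span were treated alike for every gene. Listed starts served only for promoters and for distances from a start. The listed start of Six3 lies inside its span, so the rule for ends did not examine it. Counts used Python 3.11.15, numpy 2.4.6 and pandas 2.3.3, exact intervals scipy 1.17.1, and the overlap code was tested on simulated intervals. No test between groups or gene lists was run. All 10 members are named with all their reproducible peaks. For the other lists, the rule was up to 4 genes with the strongest peak at an end by the lower replicate value, up to 2 with the most distal peaks per 100 kb, and up to 2 without peaks. The members and lists were chosen with earlier results of these data known. The alternatives were reciprocal overlap of 50%, −log10 q of at least 5, flanks of 25 and 100 kb, summits only, each MEIS2 library alone, replicate 2 peaks as the counted list, and gene ends of 500 and 2500 bp. The 50% applied to no-antibody peaks as well as to replicate partners.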

Additional observations from a re-analysis of the deposited data

How the results depend on the processing

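The number of members with a reproducible peak stayed at 9 under 50% reciprocal overlap, −log10 q of at least 5, both other flanks, summits only, replicate 2 peaks as the counted list and replicate 1 alone, and was 10 with replicate 2 alone, whose single peak at Gpr52 then counted. Members with a peak at an own end fell to 2 (Drd2 and Penk) with 50% reciprocal overlap, against 45.4% of all genes, and came to 9 with an end of 2500 bp. Replicate 1 alone gave 7 and replicate 2 alone gave 6. Peaks over the loci came to 58 with replicate 1 alone and 70 with replicate 2 alone, since no partner is then asked for. Distal ones came to 40 with replicate 1 alone and 54 with replicate 2 alone. No-antibody peaks numbered 3 with flanks of 25 kb, a shorter window. The share of repeating peaks lay between 53.3% and 66.7% over its alternatives, no-antibody peaks numbered 4 at −log10 q of at least 5, and the remaining counts over all members moved by less than 1.5 times. Counts at single members moved more often: 8 of 10 moved by over 1.5 times without replicate 1, 3 without replicate 2, 4 at −log10 q of at least 5, 3 with each other flank and 2 with 50% reciprocal overlap. Six3 had 1 peak at that −log10 q and 2 with 50% reciprocal overlap, in place of 4. No paired analysis was possible because the groups share fewer than 2 replicate numbers. Depth limits weak peaks: a site without a peak is a site not called at this depth.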

Other observations

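Peaks of 1 MEIS2 library alone lay at both ends of Six3 and, as given above, at the start of Sp9, where no reproducible peak lay. Replicate 2 had one at chr17:85613876-85614125 (fold enrichment 3.28), 360 bp from the lower-coordinate end of Six3, and replicate 1 had one at chr17:85626955-85627133 (5.01), 864 bp from its other end. Inside Zfp503, replicate 1 had a peak at chr14:21984937-21985121 (3.48) and replicate 2 one at chr14:21985345-21985780 (3.60), which did not touch. These lay 1085 and 1731 bp from an end of the gene, beyond the 1 kb that counts as an end. Near the end of Penk that carries 2 reproducible peaks, replicate 1 had a further one at chr4:4139445-4139776 (3.70). Over the 10 loci, 20 replicate 1 peaks and 28 replicate 2 peaks had no partner in the other MEIS2 library.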
